A study of Mus musculus with 6 samples.

Results

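Histone lysine demethylases remove methyl groups from lysines of histone tails. The 10 genes described here are Kdm1a, Kdm1b, Kdm3a, Kdm3b, Kdm4a, Kdm4b, Kdm4c, Kdm5a, Kdm5b and Kdm6b, out of 18193 genes with a symbol of their own on the array. They were found by an exact match of the annotated symbol, and 23 probe sets carried 1 of these symbols alone. For each gene the main probe set was chosen by its mean level over the 6 arrays, the brightest being taken, and that mean is given as a description only. The 10 genes are a selection from a larger family, made with the genotype differences in these arrays already known, so a count of changed members is not independent evidence about the family.

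The cells were mouse embryonic stem cells of the male R1 line, from the strain cross (129X1 x 129S1)F1, and their RNA was measured on Affymetrix 3' expression arrays. The groups were 3 samples of wild-type cells (Sirt1+/+) and 3 samples of cells without Sirt1 (Sirt1-/-), the NAD-dependent deacetylase, and the comparison asks which transcripts differ between them. Both were grown on 0.1% gelatin in medium with 15% serum and leukaemia inhibitory factor (LIF) at 100 IU/ml. The labels name 1 source of cells per genotype, so loss of Sirt1 and any further difference of those sources cannot be told apart. They are silent on whether samples of a genotype were grown separately, and p-values therefore measure the spread of these samples alone, possibly a technical one.

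Levels are log2 RMA values, in which a difference of 1 is a 2-fold difference, and a change is always knockout minus wild type. A gene is said to have risen or fallen where limma's test over all 18193 genes gave a Benjamini-Hochberg adjusted p under 0.05. The level of a probe set depends on its probes, so levels are compared between arrays and not between genes. The 6 arrays had medians of 4.51 to 4.57, and across genes, which are not independent replicates, they correlated at 0.997 to 0.998 within a genotype and at 0.989 to 0.991 across genotypes. Sirt1 itself lay at 10.12, 10.13 and 10.23 in Sirt1+/+ cells and at 8.02, 7.94 and 8.20 in Sirt1-/- cells, and changed by -2.11 (SE 0.08; limma, Benjamini-Hochberg adjusted p = 3.98e-05). Over all genes 17.5% fell and 12.5% rose. Pluripotent cell markers were all above the median gene level of 5.83, where 48% of genes were called in either direction. Of 10 such markers 6 fell and none rose, with Nanog (-0.90), Klf4 (-0.66) and Tdgf1 (-0.65) changing most, and Pou5f1 read 12.29 ± 0.04 and 12.39 ± 0.02 (SD, n = 3 each). Of 10 primitive endoderm markers 6 fell, among them Cubn (-2.24), Dab2 (-1.80, or -0.69 with probe sets averaged) and Pdgfra (-1.52, or -0.50), and the mean level of the list went from 5.36-5.41 on wild-type arrays to 4.45-4.60 on knockout arrays. Of 10 fibroblast markers 2 fell, Thy1 (-1.07) and Pdgfrb (-0.50, or -0.33 with probe sets averaged), and 6 lay below the lower quartile of gene levels (3.65); the list's mean level was 4.03-4.06 and 3.81-3.94. In bulk RNA, fewer cells of a type and less RNA per cell cannot be told apart, and the part of these markers in the results on demethylases was not tested.

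There are 2 classes of these enzymes. Kdm1a (LSD1) and Kdm1b (LSD2) are flavin-dependent amine oxidases that act on mono- and dimethylated histone H3 lysine 4 (H3K4), a mark of promoters and enhancers. The others carry a JmjC domain and use iron and 2-oxoglutarate, with oxygen as a substrate. Among them, Kdm5 proteins act on di- and trimethylated H3K4, Kdm3 proteins on mono- and dimethylated H3K9, Kdm4 proteins on di- and trimethylated H3K9 and H3K36, and Kdm6b on di- and trimethylated H3K27. In embryonic stem cells, Kdm1a is known for silencing enhancers as cells differentiate, and Kdm3a and Kdm4c for clearing H3K9 methylation at pluripotency genes.

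Since 4 of the genes fell, their promoters are shown, from RefSeq on GRCm38.p6, 5′ to 3′ on the strand of the gene and covering 250 bases before to 50 bases after a transcription start. Capitals mark matches on either strand to 3 motifs. The first is the GC box with the letters GGGCGG, and the next is the CCAAT box. The last, ACGTG, is the core of hypoxia response elements, and the palindromic E-box with the letters CACGTG contains it on both strands. The Kdm5b promoter lies at chr1:134559928-134560227 on the plus strand, that of Kdm1b at chr13:47043249-47043548 on the plus strand, that of Kdm4c at chr4:74251629-74251928 on the plus strand and that of Kdm1a at chr4:136602674-136602973 on the minus strand.
Kdm5b: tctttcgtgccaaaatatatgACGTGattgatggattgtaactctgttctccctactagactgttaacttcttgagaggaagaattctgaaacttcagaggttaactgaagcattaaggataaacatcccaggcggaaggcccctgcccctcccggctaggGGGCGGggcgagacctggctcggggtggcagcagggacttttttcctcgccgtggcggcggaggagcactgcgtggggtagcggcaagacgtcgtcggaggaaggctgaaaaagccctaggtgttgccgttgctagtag
Kdm1b: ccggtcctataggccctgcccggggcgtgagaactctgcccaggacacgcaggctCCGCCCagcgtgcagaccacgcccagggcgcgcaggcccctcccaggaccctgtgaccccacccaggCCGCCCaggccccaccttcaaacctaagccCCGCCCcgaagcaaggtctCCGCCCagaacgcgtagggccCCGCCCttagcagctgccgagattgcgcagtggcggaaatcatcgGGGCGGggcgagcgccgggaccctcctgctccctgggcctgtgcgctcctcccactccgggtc
Kdm4c: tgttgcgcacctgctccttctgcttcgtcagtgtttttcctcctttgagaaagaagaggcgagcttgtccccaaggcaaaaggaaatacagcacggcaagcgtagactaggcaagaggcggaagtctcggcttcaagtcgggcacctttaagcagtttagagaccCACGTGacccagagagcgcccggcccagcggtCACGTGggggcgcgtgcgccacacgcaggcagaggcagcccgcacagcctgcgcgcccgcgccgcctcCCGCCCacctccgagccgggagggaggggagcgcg
Kdm1a: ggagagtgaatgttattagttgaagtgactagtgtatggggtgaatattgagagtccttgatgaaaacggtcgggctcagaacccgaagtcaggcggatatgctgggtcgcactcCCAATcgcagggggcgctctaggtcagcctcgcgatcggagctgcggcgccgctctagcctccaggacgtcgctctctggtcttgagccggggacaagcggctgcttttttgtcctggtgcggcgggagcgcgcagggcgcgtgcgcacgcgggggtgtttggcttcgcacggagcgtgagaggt
All 4 windows were rich in CpG, with 17 in Kdm5b, 26 in Kdm1b, 28 in Kdm4c and 29 in Kdm1a against a median of 7 over 32851 promoters. Their motifs differed. The Kdm4c window held 2 E-boxes, a motif found in 7.15% of all promoters, and the ACGTG core lay within both of them. Kdm5b held 1 such core outside an E-box, whereas those of Kdm1a and Kdm1b held none; 19.6% of promoters hold it. Kdm1b held 6 GC boxes, Kdm5b and Kdm4c 1 each and Kdm1a 0, where 35.7% of promoters hold at least 1. The Kdm1a window was the one of the 4 with a CCAAT box, a motif of 37.4% of promoters. Another annotated start of Kdm4c, listed first and not shown, lies at chr4:74242247-74242546. It had 0 CpG and no match to these motifs, so the statements on Kdm4c hold for the start shown alone. Of the genes that did not pass the test, the table held promoters for Kdm3a and Kdm4a. The first of 3 Kdm3a windows held 24 CpG, 3 GC boxes and 2 CCAAT boxes, and that of Kdm4a 13 CpG and 1 CCAAT box, both without ACGTG. A match of letters is a description and not a binding site. Kdm3b, Kdm4b, Kdm5a and Kdm6b were not in the promoter table.

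Of the 10 genes, Kdm5b, Kdm1b, Kdm4c and Kdm1a fell in the knockout. No member was called higher by limma, and 7 had a p under 0.05 before adjustment, as did 39.2% of all genes. Over all genes 30% were called, 17.5% lower and 12.5% higher. Among the 9096 genes brighter than the median gene, as all 10 members were, 48% were called in either direction, so the members' 4 of 10 was no more than the background of bright genes. Their median change was -0.17 against -0.01 over all genes. On the brightest probe sets the arrays of the genotypes did not overlap for 8 members, 7 with knockout lower and Kdm4a with knockout higher. Of all genes 43.8% did not overlap, 24.7% lower and 19.1% higher. Neither this share nor that of unadjusted p under 0.05 was computed for bright genes alone, so both counts lack a matching background. By substrate, 3 of the 4 H3K4 demethylases among the 10 genes fell, and 1 of the 3 Kdm4 genes. Neither Kdm3 gene nor Kdm6b passed on its brightest probe set, while a dimmer Kdm3b probe set rose by 1.56. These counts come from a chosen list without the further Kdm5 genes Kdm5c and Kdm5d. They are not evidence of a preference by substrate. The 4 genes that fell did so in each of the 13 other settings tried, with adjusted p-values up to 0.00822 in limma.

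**Figure D1:**
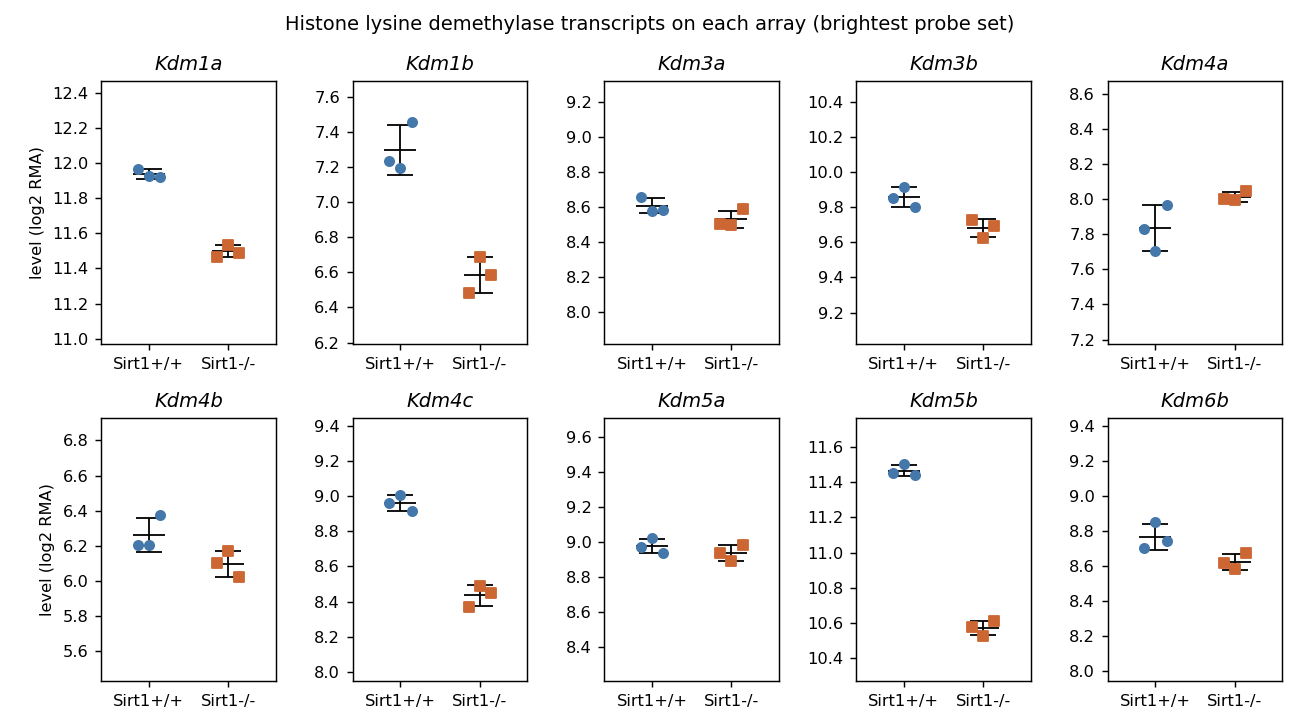
Level of each of the 10 demethylase genes on each array, as log2 RMA of its brightest probe set (vertical axes, each spanning 1.5 log2 units), for 3 Sirt1+/+ arrays (circles) and 3 Sirt1-/- arrays (squares); black marks are the mean and SD. The groups are far apart for Kdm5b (11.47 and 10.57) and Kdm1b (7.30 and 6.58), and they overlap for Kdm3a and Kdm5a.

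Kdm5b showed the largest change of the 10 genes on their brightest probe sets; with probe sets averaged, Kdm1b (-0.71), Kdm3b (0.69) and Kdm4c (-0.53) moved further than Kdm5b (-0.49). Its protein erases H3K4 methylation at promoters and enhancers and is abundant in embryonic stem cells. It read 11.45, 11.50 and 11.44 on the wild-type arrays and 10.58, 10.53 and 10.61 on the knockout arrays. All knockout values lay below all wild-type values, with a gap many times the spread within either group. The change was -0.90 (SE 0.05; limma, Benjamini-Hochberg adjusted p = 8.60e-05), a 1.86-fold lower level. Of its 4 probe sets 3 fell when all 45037 probe sets were tested together. Beside the brightest, 1 went from 7.21 ± 0.10 to 6.68 ± 0.13 and 1 from 6.17 ± 0.12 to 5.74 ± 0.10 (SD, n = 3 each), changes of -0.53 and -0.43. The fourth read 3.90 ± 0.13 and 3.82 ± 0.04, near the lower quartile of levels, and did not pass.

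Kdm5a, its close relative and a binding partner of the retinoblastoma protein, gave no call on any of its 6 probe sets. The brightest read 8.97, 9.02 and 8.94 with Sirt1 and 8.94, 8.89 and 8.99 without it, so the groups overlapped. The change was -0.04 with a 95% interval of -0.16 to 0.08 (limma, Benjamini-Hochberg adjusted p = 0.630). The other Kdm5a probe sets read changes between -0.06 and 0.32, and the mean of all of them 0.10. The second brightest went from 8.27 ± 0.14 to 8.57 ± 0.14 (SD, n = 3 each), without overlap. Its change of 0.30 did not pass (limma over all probe sets, Benjamini-Hochberg adjusted p = 0.0873). On the brightest probe sets the difference Kdm5b minus Kdm5a was 2.48, 2.48 and 2.50 on the arrays with Sirt1 and 1.64, 1.63 and 1.62 on those without it. The change of Kdm5b was thus lower than that of Kdm5a by 0.86 log2 units, and the groups did not overlap. The two-sided exact permutation p was 0.1, the smallest that 3 against 3 arrays allow, and 0.12 after Benjamini-Hochberg adjustment over the 6 pairs of related genes compared.

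Both flavin-dependent enzymes fell. Kdm1b, which acts in gene bodies and is known from oocytes for the setting of maternal imprints, read 7.24, 7.19 and 7.46 in wild type. In knockout it read 6.48, 6.69 and 6.59, below every wild-type array. Its single probe set changed by -0.71 (SE 0.09; limma, Benjamini-Hochberg adjusted p = 0.00164), a 1.64-fold lower level. Kdm1a, the enzyme of the CoREST and NuRD corepressor complexes, read 11.97, 11.93 and 11.92 with Sirt1 and 11.47, 11.54 and 11.49 without it. The change was small but far outside the spread of the arrays, -0.44 (SE 0.05; limma, Benjamini-Hochberg adjusted p = 0.000785) or 1.36-fold. Its other probe set also fell, from 10.74 ± 0.06 to 10.28 ± 0.01 (SD, n = 3 each), a change of -0.46. The change of Kdm1b was lower than that of Kdm1a by 0.27, with no overlap of the arrays in Kdm1b minus Kdm1a (exact two-sided permutation p = 0.1, Benjamini-Hochberg adjusted p = 0.12).

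Of the Kdm4 genes, which erase H3K9 and H3K36 methylation, Kdm4c fell and the others did not pass. Kdm4c read 8.96, 9.01 and 8.91 on Sirt1+/+ arrays and 8.37, 8.49 and 8.45 on Sirt1-/- arrays, with no overlap. The change was -0.53 (SE 0.05; limma, Benjamini-Hochberg adjusted p = 0.000746), a 1.44-fold lower level on its 1 probe set. Kdm4a read 7.83, 7.70 and 7.97 on Sirt1+/+ arrays and 8.00, 7.99 and 8.05 on Sirt1-/- arrays. It was the one member whose knockout arrays all lay above the wild-type arrays on the brightest probe set. Its change of 0.18 did not pass (95% interval 0.0024 to 0.36; limma, Benjamini-Hochberg adjusted p = 0.123). Over the other settings that adjusted p ran from 0.0388 to 0.262; it passed without wild-type replicate 3 (change 0.25, adjusted p = 0.0401) and with an intensity trend and robust variances. Its dimmer probe set read 3.13 ± 0.03 and 3.29 ± 0.09 (SD, n = 3 each). Kdm4b changed by -0.16 (95% interval -0.33 to 0.0020; limma, Benjamini-Hochberg adjusted p = 0.132), with wild-type arrays at 6.20 to 6.38 and knockout arrays at 6.02 to 6.17.

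Within the Kdm4 genes the array-by-array differences separated the genotypes for every pair. Kdm4c minus Kdm4a was 1.13 ± 0.18 with Sirt1 and 0.42 ± 0.06 without it (SD, n = 3 each). The signed change of Kdm4c was thus lower than that of Kdm4a by 0.70, Kdm4c having moved down and Kdm4a up. Kdm4c minus Kdm4b was 2.70 ± 0.14 and 2.34 ± 0.08 (SD, n = 3 each), and Kdm4b minus Kdm4a was -1.57 ± 0.07 and -1.92 ± 0.10. The arrays did not overlap for any of these pairs. Each had an exact two-sided permutation p = 0.1, the smallest that 3 against 3 arrays allow, and 0.12 after Benjamini-Hochberg adjustment over the 6 pairs. The 3 pairs are made from the same 3 genes and are not separate evidence.

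**Figure D2:**
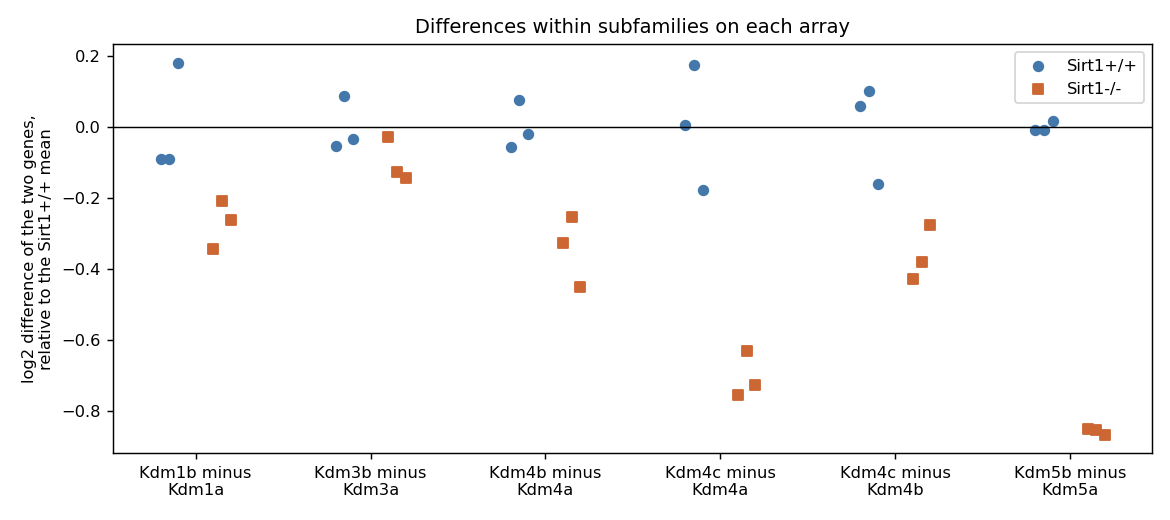
Difference between the log2 levels of related demethylase genes on each array (vertical axis, log2 units, set to 0 at the mean of the Sirt1+/+ arrays) for 6 pairs, with 3 Sirt1+/+ arrays as circles and 3 Sirt1-/- arrays as squares. The largest shift is that of Kdm5b minus Kdm5a (-0.86), and the groups overlap for Kdm3b minus Kdm3a.

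The Kdm3 genes erase H3K9 methylation, and neither passed on its brightest probe set. Kdm3a, which is induced by low oxygen in many cells and serves in spermatogenesis, read 8.66, 8.58 and 8.59 with Sirt1 and 8.50, 8.50 and 8.59 without it. The groups overlapped, and the change was -0.08 (95% interval -0.20 to 0.04; limma, Benjamini-Hochberg adjusted p = 0.325). Kdm3b read 9.85, 9.92 and 9.80 with Sirt1 and 9.73, 9.62 and 9.69 without it, and the groups did not overlap. Its change of -0.18 lay at the threshold (95% interval -0.31 to -0.05; limma, Benjamini-Hochberg adjusted p = 0.0510). The difference Kdm3b minus Kdm3a overlapped between genotypes (1.25 ± 0.08 and 1.15 ± 0.06, SD, n = 3 each; exact two-sided permutation p = 0.3).

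The second probe set of Kdm3b went the other way. It read 6.74, 6.83 and 6.77 on Sirt1+/+ arrays and 8.36, 8.30 and 8.35 on Sirt1-/- arrays. The knockout arrays lay far above the wild-type arrays, a change of 1.56 (limma over all probe sets, Benjamini-Hochberg adjusted p = 4.14e-05), larger in size than that of any other of the 23 probe sets. Which of the 2 Kdm3b probe sets is read decides the direction. Averaged over both, Kdm3b rose by 0.69 (limma, Benjamini-Hochberg adjusted p = 0.000186). On the brightest alone it passed as lower with repeated quantile normalisation (-0.19, adjusted p = 0.0457), without the dimmest 40% of genes (adjusted p = 0.0182) and with an intensity trend and robust variances (adjusted p = 0.00185), out of 13 settings. Which transcript regions these probe sets read was not analysed here.

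Kdm6b (JMJD3), an H3K27 demethylase that is induced by inflammatory and developmental signals, did not pass on any of its 3 probe sets. The brightest read 8.71, 8.85 and 8.74 with Sirt1 and 8.62, 8.58 and 8.67 without it, close together but without overlap. Its change was -0.14 (95% interval -0.28 to -0.0032; limma, Benjamini-Hochberg adjusted p = 0.120), while the dimmer ones read 0.11 and 0.28. On each of the dimmer ones all knockout arrays lay above all wild-type arrays. A call of the brightest was made with an intensity trend and robust variances (adjusted p = 0.0316), and the mean of the probe sets read 0.08.

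In all, 7 of the 23 member probe sets fell and 1 rose. Of the 45037 probe sets 19.8% were called, 10.3% lower and 9.46% higher. The genes with several probe sets numbered 6. All called probe sets pointed the same way in Kdm1a and Kdm5b, and no call was made in Kdm4a, Kdm5a and Kdm6b. In Kdm3b the call came from the dimmer one alone. The remaining 4 genes rest on 1 probe set each.

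**Figure D3:**
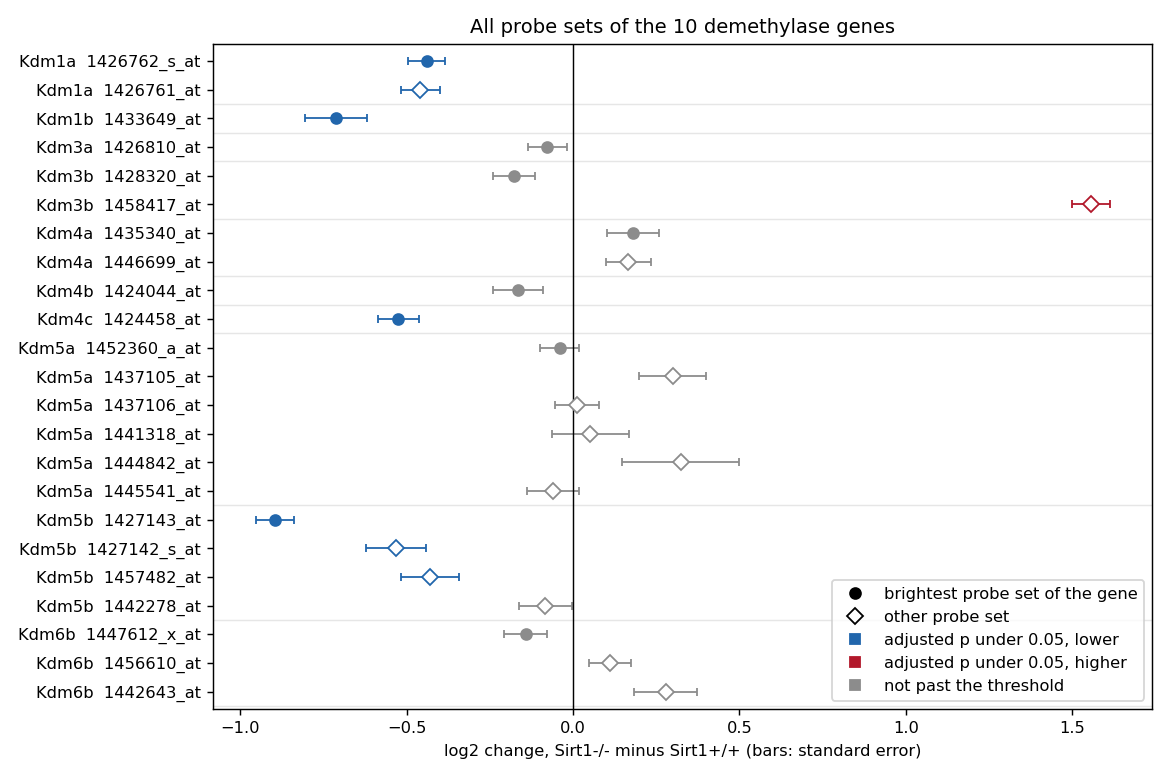
Log2 change (Sirt1-/- minus Sirt1+/+, horizontal axis) of all 23 probe sets of the 10 genes, with standard errors as bars; circles are the brightest probe set of a gene and diamonds the others, and colours give the call in limma over all probe sets. Both probe sets of Kdm1a and 3 of 4 of Kdm5b are lower, and the diamond of Kdm3b at 1.56 stands alone on the right.

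The rest of the family, 16 further JmjC genes, was read in the same way. Of these 6 fell, Kdm7a, Kdm5c, Jmjd1c, Phf8, Riox1 and the Y-linked Uty, and Phf2 rose, with a median change of -0.09. Over all genes 17.5% fell and 12.5% rose. With probe sets averaged 3 of the 16 fell and 0 rose. Kdm7a, an eraser of H3K9 and H3K27 methylation, went from 8.63 ± 0.09 to 7.89 ± 0.06 (SD, n = 3 each), a change of -0.74 (limma, Benjamini-Hochberg adjusted p = 0.000430), and another of its probe sets fell by 0.50; with its probe sets averaged the change was -0.27 and still passed. Jmjd1c, a relative of Kdm3a on the same chromosome as Sirt1 (chromosome 10), changed by -0.33 (limma, Benjamini-Hochberg adjusted p = 0.00299) and by 0.07 with probe sets averaged. Whether its chromosome has a part in this change was not tested. The calls of Phf8 (-0.25), Riox1 (-0.18) and Phf2 (0.25) held in 4, 4 and 6 of 13 other settings, with limma adjusted p-values of 0.0326, 0.0478 and 0.0359 here.

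The X-linked and Y-linked relatives of Kdm5 and Kdm6 genes gave mixed readings. Kdm5c fell on its brightest probe set, from 8.99 ± 0.05 to 8.47 ± 0.03 (SD, n = 3 each; change -0.53), but rose on 2 others, from 8.46 ± 0.03 to 8.94 ± 0.03 and from 8.50 ± 0.13 to 8.89 ± 0.03, and its mean over probe sets changed by 0.08. Kdm6a changed by -0.06 on its brightest probe set (limma, Benjamini-Hochberg adjusted p = 0.353), while a dimmer one rose from 5.65 ± 0.28 to 6.74 ± 0.17 (SD, n = 3 each). Uty, the Y-linked copy of Kdm6a with weak activity, read 7.21, 6.86 and 7.23 with Sirt1 and 2.52, 2.96 and 3.16 without it, where it lay below the lower quartile of gene levels; with probe sets averaged it changed by -2.00. Kdm5d, the Y-linked copy of Kdm5c, read 3.10 ± 0.08 and 3.21 ± 0.05 (SD, n = 3 each), below that quartile in both genotypes. Whether the Sirt1-/- cells kept the Y chromosome was not tested. The fall of Uty therefore cannot be told apart from a loss of that chromosome in their source.

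**Figure D4:**
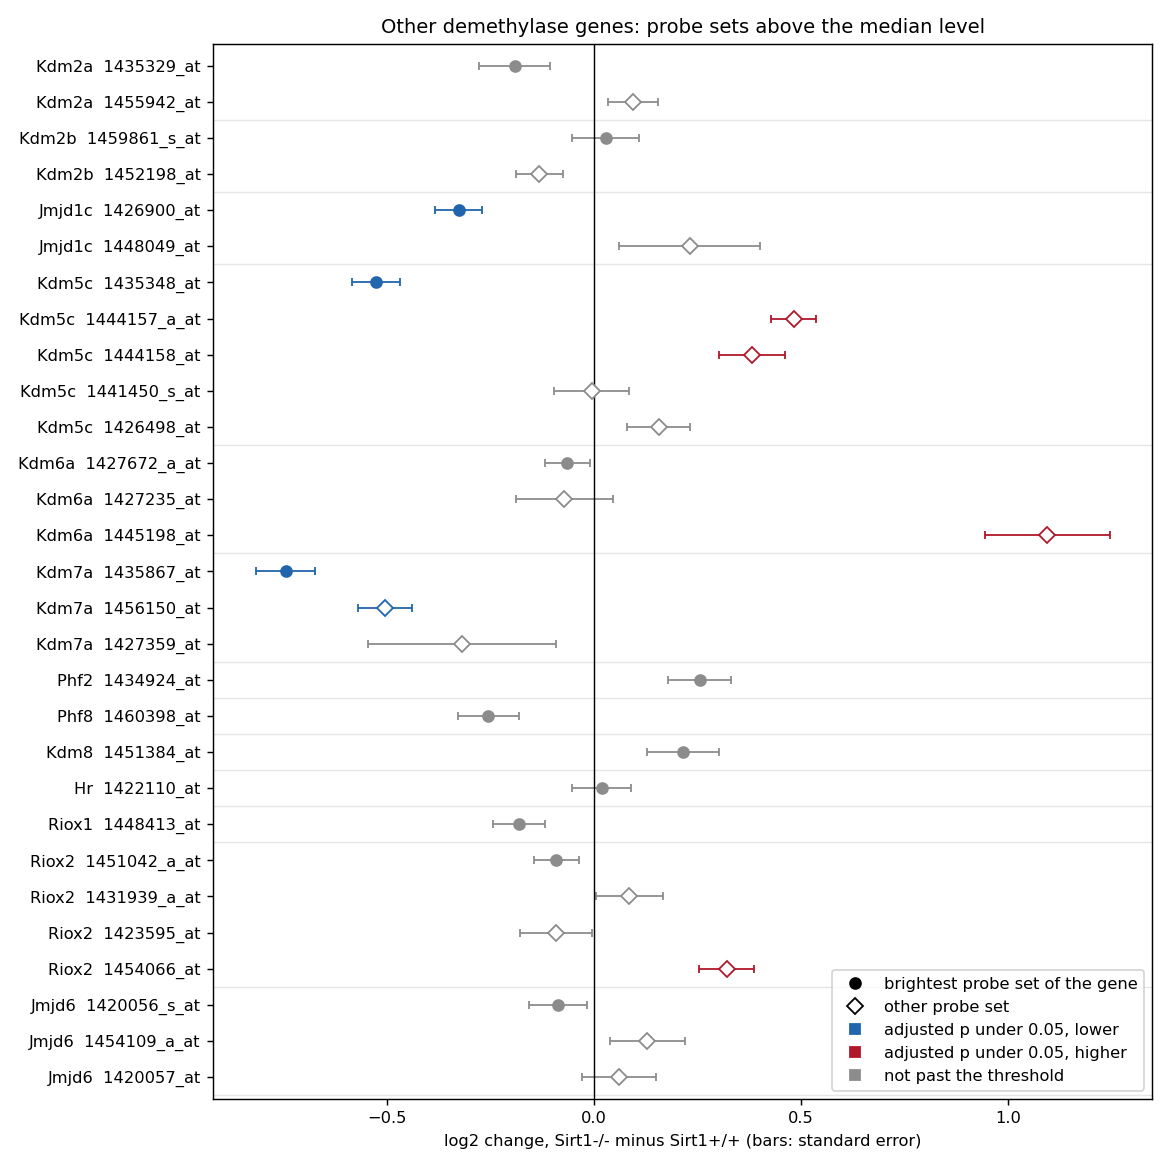
Log2 change (Sirt1-/- minus Sirt1+/+, horizontal axis) of the probe sets of further demethylase genes that lie above the median level of all probe sets, Uty left out, with standard errors as bars; symbols and colours are as for the 10 genes and calls are over all probe sets. Kdm7a is lower on both its brighter probe sets, while Kdm5c has called probe sets on both sides of 0 and a dimmer Kdm6a probe set lies at 1.09.

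The partners of the flavin-dependent enzymes moved in both directions. Of 11 measured genes 5 fell and 1 rose, with a median change of -0.02, where 17.5% of all genes fell and 12.5% rose. Of these 11 genes 10 lay above the median gene level, where 48% of genes were called in either direction. Zmym3 changed by -0.43, Rcor2, a CoREST scaffold of embryonic stem cells, by -0.38 and Hmg20b, a CoREST subunit, by -0.30; Phf21a and Hdac2 were the others that fell, and 3 genes in place of 5 were lower with probe sets averaged (Zmym3 -0.26). Gse1, which binds the same complex, rose from 6.52 ± 0.09 to 7.88 ± 0.10 (SD, n = 3 each), a change of 1.36 (limma, Benjamini-Hochberg adjusted p = 9.60e-05), or 0.47 with probe sets averaged. Rcor1 (0.02), the deacetylase Hdac1 (0.13) and Glyr1, the cofactor of Kdm1b (0.03), did not pass.

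The opposing methyltransferases are given for comparison, beside 17.5% of all genes that fell and 12.5% that rose. All those measured lay above the median gene level, where 48% of genes were called in either direction. Of 12 genes of the H3K4 methyltransferase complexes 3 fell and 0 were higher by limma, 6 having a p under 0.05 before adjustment against 39.2% of all genes. All 12 lay above the median gene level, and that share was not computed for bright genes alone. Kmt2c, which methylates enhancers, changed by -0.72, Kmt2a by -0.25 and the shared subunit Ash2l by -0.22 (-0.12 and no call with probe sets averaged). Of 5 measured H3K9 methyltransferases 2 fell, Ehmt2 (G9a) with a change of -0.31 and Setdb1 with -0.21, and with probe sets averaged neither passed. Of 4 measured H3K36 methyltransferases 3 fell, Nsd3 (-0.46), Nsd1 (-0.39) and Setd2 (-0.21), and Nsd2 rose by 0.27. Nsd3 read -0.04 with probe sets averaged and did not pass without any 1 of the wild-type arrays, and Setd2 passed in 1 of the 6 fits that leave out an array. Nsd1 and Setdb1 read 0.17 and 0.08 with probe sets averaged. The H3K27 methyltransferases Ezh1 and Ezh2 changed by -0.02 and -0.03, and neither passed in limma or had a p under 0.05 before adjustment; Ezh1 read 0.54 with its probe sets averaged. Suv39h1 and Ash1l were not analysed here.

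Some demethylase genes are known targets of the hypoxia-inducible factors, so a list of hypoxia-responsive genes was read beside them. Of 16 genes 6 fell and 2 rose, with a median change of -0.15. Over all genes 17.5% fell and 12.5% rose. Of the 16 genes 14 lay above the median gene level, where 48% of genes were called in either direction. Without the dimmest 40% of genes, 10 of the 14 genes left in the list were lower. In that setting 3330 of all 10916 genes were lower. The genes that rose were Higd1a (0.39) and Ddit4 (0.21). Egln3, an oxygen-sensing prolyl hydroxylase, changed by -1.67, the mitophagy receptor Bnip3 by -1.37, the glucose transporter Slc2a1 by -0.75 and Egln1, the main prolyl hydroxylase, by -0.71. Kdm3a, a commonly used hypoxia target, did not pass (-0.08). Genes reported to depend on Kdm3a or Kdm4c in embryonic stem cells were read last. Nanog, reported for Kdm4c, changed by -0.90. Of those reported for Kdm3a, Tfcp2l1 changed by -0.30 (-0.04 and no call with probe sets averaged) and Tcl1 by -0.20, while Zfp57 read 6.48 ± 0.11 and 6.47 ± 0.11 (SD, n = 3 each).

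**Figure D5:**
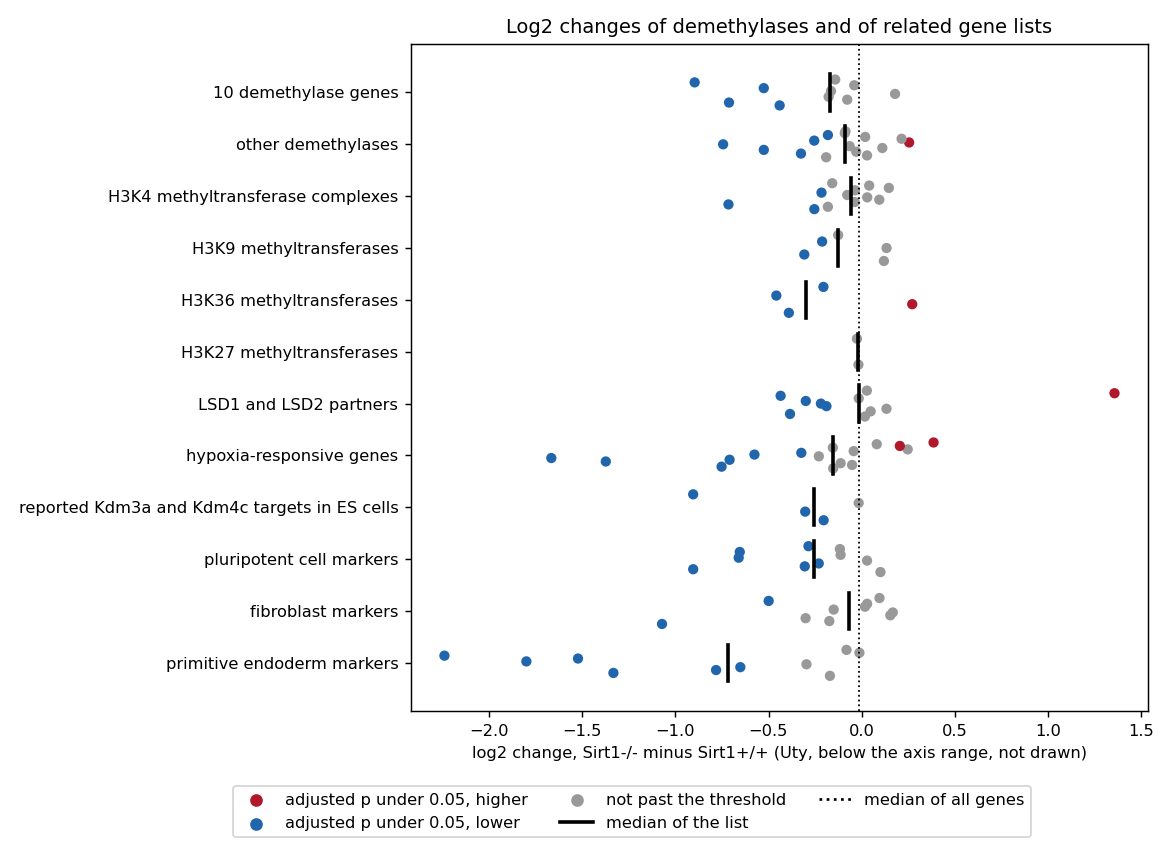
Log2 change (Sirt1-/- minus Sirt1+/+, horizontal axis) of every measured gene of each list on its brightest probe set, with colours for the call in limma over all genes, thick bars for the median of a list and a dotted line for the median of all genes (-0.01); Uty at -4.22 is not drawn. The 10 demethylase genes have a median of -0.17, the 16 others -0.09 and the primitive endoderm markers -0.72.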

How the data were processed

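RNA from 3 Sirt1+/+ and 3 Sirt1-/- samples was hybridised to 1 array each, and samples were grouped by the genotype in their titles. The submitters' processing notes name Partek 6.5 and RMA, with which the authors made the deposited log2 values; the scale was taken from their range, and the settings were not stated. Of 45101 probe sets, 64 controls were left out, 34945 had 1 gene symbol, 932 several and 9160 none; the last 2 kinds were not used for genes. A Kdm6b probe set that also carries another symbol was among those left out.

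The fit used lmFit and eBayes of limma 3.58.1 (R 4.3.3; two-sided) over 18193 genes on their brightest probe sets with no filter on dim ones, with Benjamini-Hochberg adjustment at 0.05; a second fit took all 45037 probe sets. Intervals are limma's at 95%. The number of arrays limits the precision. Related genes were compared by an exact permutation test of their difference per array. The procedure was tested on simulated data.

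The members and lists were chosen with earlier results of these data known. Named were all members, changed or Y-linked relatives, up to 4 changed genes of each list with the largest change, up to 3 of each marker list, and the reported Kdm3a and Kdm4c targets; list genes named that did not pass (Rcor1, Hdac1, Glyr1, Ezh1, Ezh2, Pou5f1) and Kdm6a were chosen after their values were seen. Promoters and chromosomes are from RefSeq on GRCm38.p6. Further settings were a repeated quantile normalisation, centring on array medians, removal of the dimmest 40% of genes, averaged probe sets, an intensity trend with robust variances, a replicate block, each array left out, and all probe sets as rows.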

Additional observations from a re-analysis of the deposited data

How the results depend on the processing

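Kdm5b, Kdm1b, Kdm4c and Kdm1a were called lower in every one of the 13 other settings. No member was called higher in the main setting; 1 was with probe sets averaged (Kdm3b, 0.69) and 1 with an intensity trend and robust variances (Kdm4a). Leaving out 1 array gave 4 members lower each time, and 0 to 1 higher.

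For the other demethylases, the count of those higher went from 1 to 0 with probe sets averaged, under the replicate block and with all probe sets as rows, and the count of those lower from 6 to 3 with probe sets averaged (leaving out 1 array, 0 to 1 higher and 4 to 5 lower). Over all genes 2270 were higher, and 4261 of 45037 with all probe sets as rows; leaving out 1 array gave 1656 to 2009 higher and 2448 to 2759 lower. H3K4 complex genes gained 1 higher without the dimmest 40% of genes and with the trend (leaving out 1 array, 2 to 3 lower). H3K9 methyltransferases had 1 lower in place of 2 after centring, under the block and with all probe sets as rows, and 0 lower and 1 higher with probe sets averaged (leaving out 1 array, 1 to 2 lower). H3K36 methyltransferases had 1 lower in place of 3 with probe sets averaged (leaving out 1 array, 1 to 2), where 1 H3K27 methyltransferase was higher (Ezh1, 0.54). The partners of Kdm1a and Kdm1b had 2 higher without the dimmest genes, with probe sets averaged and with the trend, and 3 lower in place of 5 after centring, with probe sets averaged, under the block and with all probe sets as rows (leaving out 1 array, 3 to 4). Hypoxia-responsive genes had 10 lower in place of 6 without the dimmest genes and with the trend. Without the dimmest genes 14 of the list remained, and 3330 of 10916 genes were lower. With the trend all 16 were read, and 3727 of 18193 genes were lower. Pluripotent cell markers had 1 higher with probe sets averaged and with the trend.

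With probe sets averaged, so that dimmer ones enter, 21 of 110 named or listed genes changed sign. Among them Jmjd1c (0.0724), Kdm5c (0.0756), Setdb1 (0.0765), Nsd1 (0.17), Ezh1 and Kdm3b were called on one or the other reading; the members Kdm5a (0.0976) and Kdm6b (0.0825) were called on neither. Like-numbered arrays deviated together with correlations of 0.0515, -0.0865 and 0.198 across genes, so the numbers were not taken to pair the samples; under the replicate block 4 members were lower and 0 higher, and 1908 genes were higher and 2792 lower. The number of arrays limits the precision.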
